A study of Mus musculus with 4 samples.

Results

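The miR-34 and miR-449 family was described in small RNA libraries from the medial prefrontal cortex of mice. The members are 8 mature arms of the precursors of miR-34a, miR-34b, miR-34c, miR-449a and miR-449c, chosen by name, and all 8 are among the 1038 known miRNAs in the authors' deposited table. The libraries came from male C57BL/6 mice (C57BL/6J in the study's methods) that were juvenile when the experiment began. In the CUMS group the mice had lived under chronic unpredictable mild stress, a schedule of isolation, restraint, tilted or damp cages, noise, light and disturbed day rhythm, and only those with changes in all behavior tests (sucrose preference, Y-maze and forced swimming) were used. Control mice were kept without stress, and there were 2 libraries in each group. RNA was isolated from the tissue of each mouse, so the cortex was measured as a mixture of its cells, in which fewer cells of a type and less RNA per cell cannot be told apart. The deposited values are group means of reads divided by a size factor of each library (normalized reads), and they were solved for the whole reads in each library. The letters a and b only separate the libraries of a group. Pooling of mice is not described, and p-values measure only the spread between these libraries.

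A miRNA is cut from a hairpin precursor as a 5p and a 3p arm, and the arm that is loaded onto an Argonaute protein finds its target mRNAs mainly through its seed, the bases from position 2 to 8. The 5p arms of miR-34a, miR-34b, miR-34c and miR-449 are grouped as 1 family by a common seed. The tumor suppressor p53 is a known activator of the miR-34 genes, and the targets of the family include cell cycle genes, Sirt1 and, for miR-34c, the stress hormone receptor gene Crhr1. miR-34b, miR-34c and miR-449 are also known to be abundant in cells with many cilia. In the brain, such cells line the ventricles and cover the choroid plexus.

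Mature sequences were found in RefSeq (GRCm38.p6) for 7 of the 8 members and are shown to compare their seeds, which are in capitals. Of the 1679 named mature miRNAs in the RefSeq table, 4 have the seed of miR-34a-5p, and 0 of these 4 lie outside the members. The sequence of mmu-miR-34c-5p was not read here, and the arms of miR-449b were not looked up by name in RefSeq. This count therefore does not bear on them. The 5p arms that were read are as follows.
mmu-miR-34a-5p: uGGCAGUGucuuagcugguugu
mmu-miR-34b-5p: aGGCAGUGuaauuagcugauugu
mmu-miR-449a-5p: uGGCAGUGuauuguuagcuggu
mmu-miR-449c-5p: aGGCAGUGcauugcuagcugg

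The 3p arms have other seeds, and those of miR-34b-3p and miR-34c-3p are the same.
mmu-miR-34a-3p: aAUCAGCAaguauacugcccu
mmu-miR-34b-3p: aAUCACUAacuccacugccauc
mmu-miR-34c-3p: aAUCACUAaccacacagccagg
The longest run of bases shared by any pair of these 7 sequences is 10, between miR-34b-3p and miR-34c-3p.

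The precursors lie at 3 loci of GRCm38, as annotated in GENCODE M21. Mir34b at chr9:51103562-51103645 and Mir34c at chr9:51103034-51103110 are 451 bases apart on the minus strand, inside an intron of Btg4, which is on the other strand. Mir449c at chr13:113035983-113036091 and Mir449a at chr13:113037534-113037624 are in an intron of Cdc20b on the same strand as this gene, with Mir449b between them. Mir34a at chr4:150068454-150068555 overlaps an exon of Gm37795, a transcript model of no assigned class.

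The depth was between 9589323 and 10783592 reads on known miRNAs per library, so that 3 reads are between 0.278 and 0.313 CPM, the reads per 1000000 miRNA reads of a library. Intervals and floors given here cover counting error only. Brain miRNAs were abundant in every library, with summed normalized reads of miR-124-3p, miR-9-5p, miR-128-3p and miR-138-5p between 722185 and 957777. Control library b stood apart. miR-182-5p took 8.92% of its reads, against 0.0373% to 0.0685% in the other 3 libraries, and the main results are therefore also given without it.

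The members ranged from 0 to 3524 reads in a library, and 1 arm held most of the reads of the family. miR-34c-5p took 84.5% and 86.1% of the family reads in control, compared with 85.4% and 82.3% in CUMS, with 95% Wilson intervals between 80.7% and 87.1%. It was ranked 124 among the 1038 miRNAs by its mean. Next were miR-34b-5p, with 9.65% to 10.7% of the family reads, and miR-34a-5p, with 1.78% to 5.30%. The libraries of miR-34c-5p, miR-34b-5p, miR-34a-5p and miR-449a-5p did not overlap from one level to the next, as the lowest library of each was above the highest library of the one below it. miR-449a-5p, miR-34b-3p, miR-34c-3p and miR-449c-5p overlapped with their neighbors in this order. Levels of different miRNAs also depend on how well each one is ligated and amplified, which was not corrected.

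**Figure D1:**
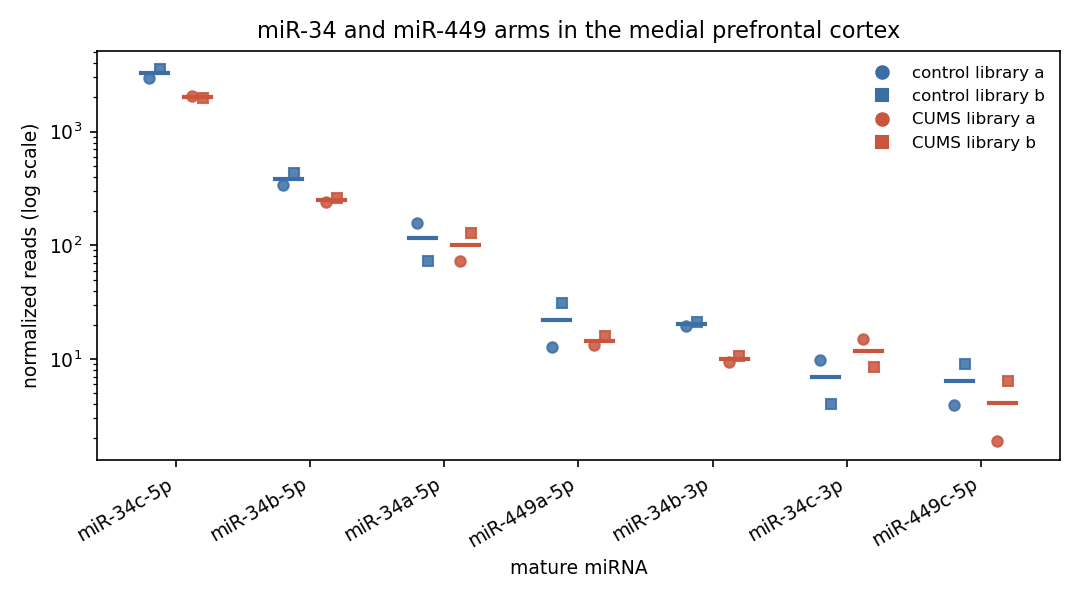
Normalized reads (log axis) of the 7 members with at least 5 reads in a library, with 1 point for each library and a bar at each group mean. The points of miR-34c-5p, miR-34b-5p and miR-34b-3p are lower in both CUMS libraries than in both control libraries, and those of the other 4 members overlap.

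The arms of miR-34b and miR-34c with the most reads were lower in CUMS than in control. miR-34c-5p was counted 3040 times in control library a, 3524 times in control library b, 2177 times in CUMS library a and 1880 times in CUMS library b. Its normalized reads were 3248 ± 388 (SD, n = 2) in control and 2021 ± 40.9 (SD, n = 2) in CUMS, which is 37.8% lower, a log2 ratio of -0.68. The lowest control library was 1.45 times the highest CUMS library. In CPM, the lowest bound of the 95% Wilson intervals in control, 279, was above the highest bound in CUMS, 218.

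miR-34b-5p followed the same order. Its counts were 347 and 431 in control, against 253 and 245 in CUMS (library a before library b, here and in what follows). The normalized reads were 385 ± 64.6 (SD, n = 2) and 249 ± 15.1 (SD, n = 2), which is 35.4% lower in CUMS, a log2 ratio of -0.63. The groups were again apart, with the lowest control library at 1.31 times the highest CUMS library.

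The 3p arm of miR-34b, which is much less abundant, had 20 and 21 reads in control, which compares with 10 and 10 reads in CUMS. Its log2 ratio was -1.02 (edgeR adjusted p = 0.849), and the groups did not overlap. At this depth the 95% Wilson intervals of its libraries overlapped, with a lowest bound of 1.23 CPM in control and a highest bound of 1.92 CPM in CUMS.

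Each miRNA that reached 5 reads in some library was tested, 719 in all. With edgeR's quasi-likelihood test, run on the whole reads, 2 of the 7 members tested met the criteria in the study's methods, which are a fold above 1.5 and an unadjusted p under 0.05. These were miR-34c-5p (log2 fold change -0.72, edgeR adjusted p = 0.849) and miR-34b-5p (log2 fold change -0.67, adjusted p = 0.849). Over all miRNAs tested, 24 (3.34%) passed in either direction and 20 (2.78%) were lower in CUMS. By edgeR's unadjusted p, miR-34c-5p was ranked 3 and miR-34b-5p was ranked 8 of the 719. By the Wald test of DESeq2, the log2 fold change was -0.69 ± 0.19 (standard error) for miR-34c-5p, with an adjusted p of 0.109. For miR-34b-5p, DESeq2 gave -0.64 ± 0.27 (standard error), with an adjusted p of 0.813. DESeq2 called 18 miRNAs (2.5%) by the same criteria, 15 of them (2.09%) lower in CUMS. An adjusted p under 0.05 was reached by 0 miRNAs (0.0%) with edgeR and by 0 with DESeq2, while 30 miRNAs (4.17%) had an unadjusted p under 0.05 with edgeR. No member therefore passed after correction for the number of miRNAs. The study applied its criteria with DESeq, and its list of changed miRNAs names no arm of miR-34 or miR-449.

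Without control library b, the edgeR criteria were passed by 0 members, and the log2 ratio of the means was -0.56 for miR-34c-5p and -0.45 for miR-34b-5p. Without CUMS library a or without CUMS library b, 1 member passed. With 2 libraries against 2, a two-sided exact permutation test of a single miRNA cannot give a p below 0.333.

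**Figure D2:**
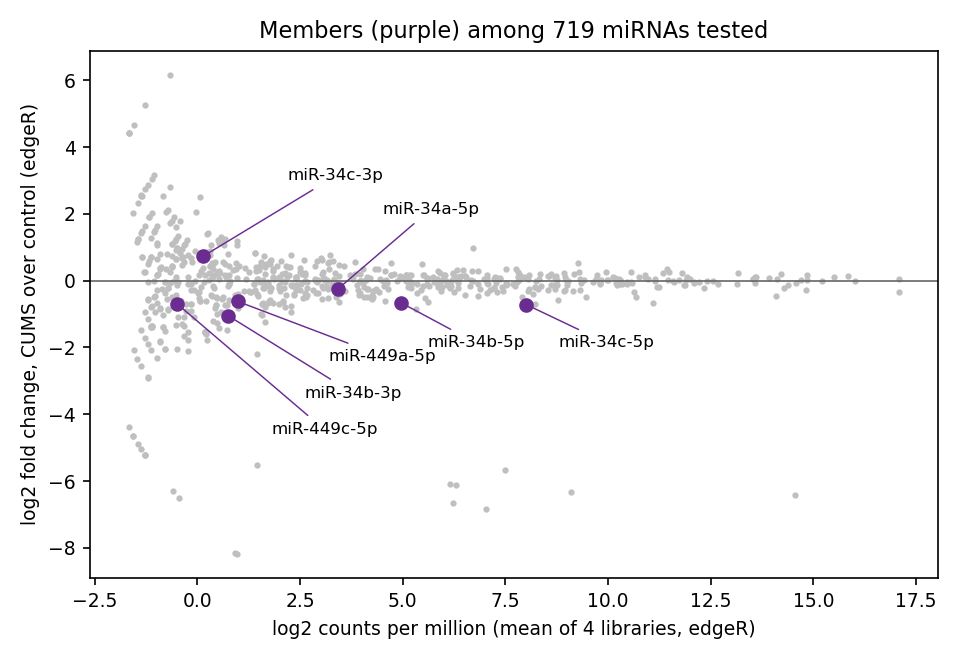
The log2 fold change from edgeR, CUMS over control, against the mean level in log2 CPM for each of the 719 miRNAs tested (gray) and the 7 members among them (purple). miR-34c-5p and miR-34b-5p are at -0.72 and -0.67, and miR-34c-3p is the member above 0.

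In all, 3 of the 8 members had both CUMS libraries below both control libraries, as did 17.1% of all miRNAs tested. All 3 also differed by a fold above 1.5, a combination found in 8.9% of all miRNAs tested. Of these 3, 1 (miR-34b-3p) kept such a fold without control library b and 2 without CUMS library a. The 3 include 2 arms of the same hairpin and come from neighboring genes, so they are not separate observations. The CUMS mean was below the control mean for 6 of the 8 members and for 47.7% of all miRNAs tested. It was lower by a fold above 1.5 for 5 of the 8 members and for 16.7% of all miRNAs tested, but for 2 of the 8 without control library b and 2 of the 8 without CUMS library a. The median log2 ratio was -0.63 over the 7 members tested and 0.02 over the 719. The summed normalized reads of the family were 3517 and 4091 in control, and in CUMS they were 2401 and 2421, a log2 ratio of -0.66. Most of this sum is miR-34c-5p, and without it the log2 ratio was -0.51.

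miR-34a-5p, the 5p arm encoded at a locus of its own, differed from miR-34b-5p and miR-34c-5p in its order of libraries. In control it had 162 and 73 reads, and in CUMS it had 77 and 121. The control libraries were the highest and nearly the lowest of the 4 in normalized reads, at 158 and 73.0, with 72.5 and 128 in CUMS, and the groups overlapped. The log2 ratio of the means was -0.21 with an adjusted p of 0.935 in edgeR. Within a group, library b differed from library a by -1.12 on the log2 scale in control and by 0.82 in CUMS. The median size of this difference was 0.18 and 0.25 over the 359 miRNAs with a mean of at least 50. Its other arm, miR-34a-3p, had 1 read in CUMS library a and 0 reads in the other 3 libraries, which is under the floor of 3 reads in each, and it was not tested.

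The miR-449 members, which are encoded in Cdc20b, were rare in this tissue. For miR-449a-5p the control counts were 13 and 31 and the CUMS counts were 14 and 15, with a log2 ratio of -0.59 (edgeR adjusted p = 0.912). Its highest value was in control library b, and the 2 CUMS libraries lay between the control libraries. The groups of miR-449c-5p overlapped as well, with counts of 4 and 9 in control against 2 and 6 in CUMS (log2 ratio -0.65, edgeR adjusted p = 0.931). The 3p arms of miR-449a and miR-449c and arms of miR-449b were looked for by name and are absent from the authors' deposited table.

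miR-34c-3p was the only member tested with a higher mean in CUMS. In control it was counted 10 and 4 times, and in CUMS 16 and 8 times, so that CUMS library b was below control library a in normalized reads, at 8.48 against 9.78. The log2 ratio was 0.77, with an adjusted p of 0.931 in edgeR, and it was 1.56 without control library a and 0.27 without control library b.

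**Figure D3:**
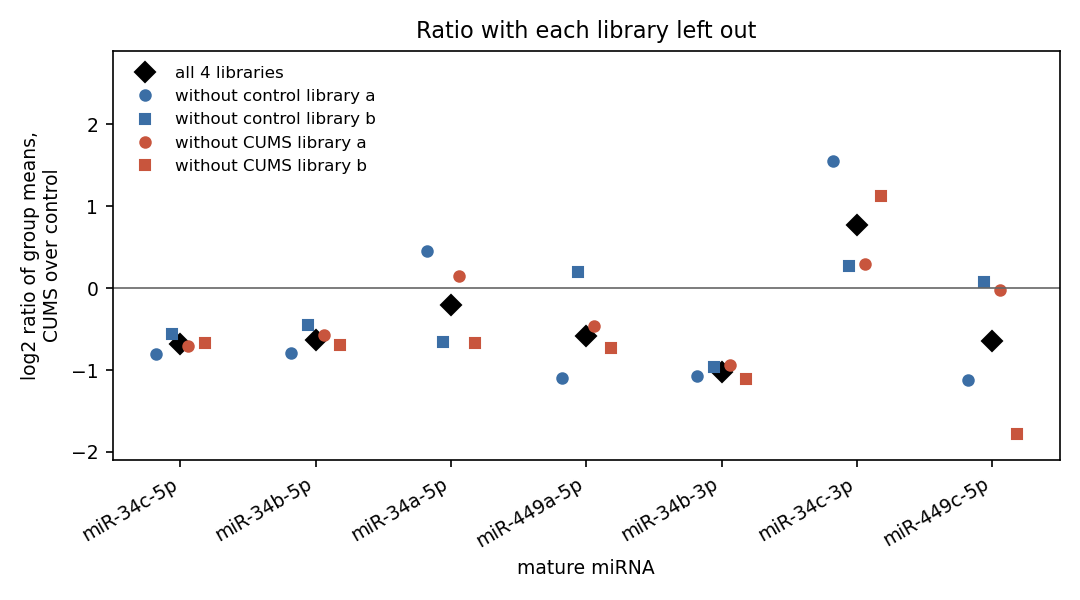
The log2 ratio of the group means, CUMS over control, for 7 members with all 4 libraries (diamonds) and after leaving out 1 library at a time. The values of miR-34c-5p stay between -0.80 and -0.56, those of miR-34b-5p between -0.79 and -0.45 and those of miR-34b-3p between -1.11 and -0.94, those of miR-34c-3p are between 0.27 and 1.56, and those of miR-34a-5p, miR-449a-5p and miR-449c-5p are on both sides of 0.

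Ratios between members were then taken within each library, where the size factors cancel. The reads of miR-34c-5p over those of miR-34b-5p, the 5p arms of the neighboring hairpins, gave ratios of 8.76 and 8.18 in control, while in CUMS they were 8.60 and 7.67. The log2 ratio was 3.08 ± 0.07 (SD, n = 2) in control and 3.02 ± 0.12 (SD, n = 2) in CUMS, and the difference of -0.06 was less than the larger of these spreads. The ratio of miR-34c-5p to miR-34a-5p varied more, from 15.5 in CUMS library b to 48.3 in control library b, and the groups overlapped.

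The arms were also compared. The 5p arm of miR-34b had 17.4 and 20.5 times the reads of its 3p arm in control, and 25.3 and 24.5 times as many in CUMS. For miR-34c the 5p arm had 304 and 881 times the reads of the 3p arm in control and 136 and 235 times in CUMS. The log2 ratio of the arms was thus higher in both CUMS libraries for miR-34b (difference 0.40) and lower in both for miR-34c (difference -1.53). Each gave an exact two-sided permutation p of 0.333, the smallest possible, and 0.833 after Benjamini-Hochberg adjustment over the 5 ratios computed. The difference for miR-34c was -2.30 without control library a and -0.77 without control library b, and its ratios rest on 4 to 16 reads of the 3p arm in a library.

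**Figure D4:**
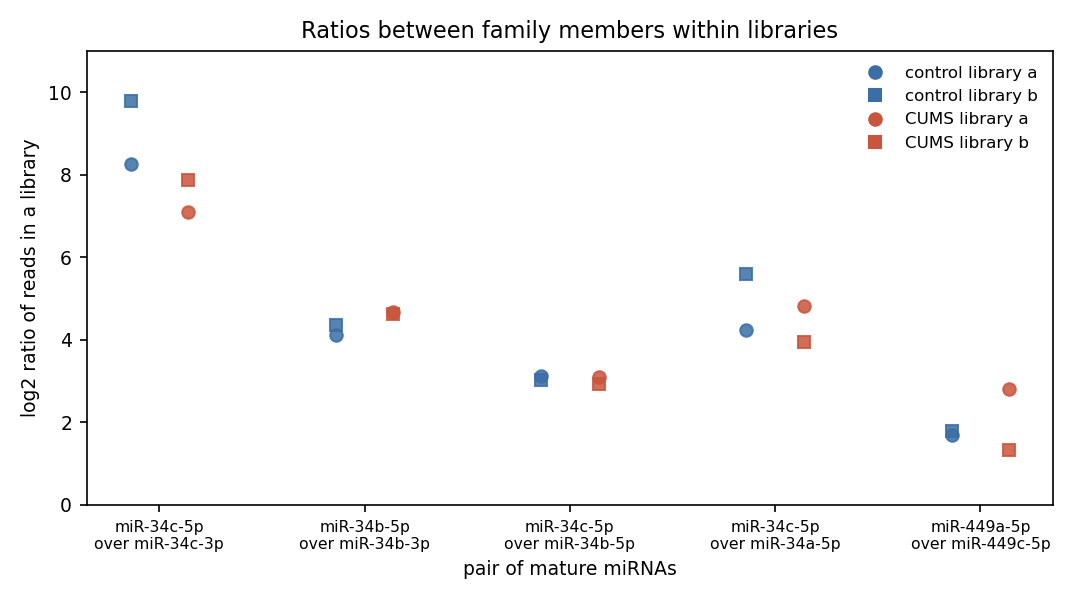
The log2 ratio of the reads of 2 members in each library, for 5 pairs. The 4 libraries lie between 2.94 and 3.13 for miR-34c-5p over miR-34b-5p, and spread between 3.96 and 5.59 for miR-34c-5p over miR-34a-5p.

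The pattern of miR-34c-5p over the 4 libraries was compared with that of 358 other miRNAs with a mean of at least 50, by the Euclidean distance between their centered log2 normalized reads. The nearest was miR-34b-5p, at a distance of 0.15. Next were miR-6944-3p (distance 0.18), counted 205 and 252 times in control but 172 and 145 times in CUMS, and miR-758-3p (distance 0.20), counted 592 and 623 times in control but 455 and 336 times in CUMS. miR-34a-5p was ranked 329 of the 358, at a distance of 1.25. These distances rest on 4 points that share their libraries and are given as a description.

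A list of other miRNAs that have been linked to p53 was also read. Of the 8 in this list, 4 had a higher and 4 a lower mean in CUMS, and the median log2 ratio was 0.0028. An unadjusted p under 0.05 in edgeR was reached by 0 of the 8 in either direction. These counts lie near the shares over all miRNAs tested, which were 47.7% with a lower mean and 4.17% with such a p. The most abundant of the list, miR-143-3p, was counted 304108 and 210187 times in control, and 217205 and 276699 times in CUMS. miR-192-5p, miR-16-5p and miR-107-3p had log2 ratios of 0.07, -0.05 and 0.07.

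Markers of epithelium and choroid plexus were read beside the members, because ciliated epithelium is a known site of miR-34b, miR-34c and miR-449. Both markers of the choroid plexus had a lower mean in CUMS, and 0 of the 2 passed an unadjusted p under 0.05. miR-204-5p had normalized reads of 16817 and 21995 in control and 15872 and 12609 in CUMS, so the groups did not overlap (log2 ratio -0.45, edgeR adjusted p = 0.849). miR-211-5p was counted 127 and 20 times in control and 92 and 17 times in CUMS. The summed normalized reads of the pair came to 16942 and 22015 in control, against 15959 and 12627 in CUMS, and neither was at 0 in any library. Among all miRNAs tested, 47.7% had a lower mean in CUMS and 17.1% had both CUMS libraries below both control libraries. With edgeR, 4.17% had an unadjusted p under 0.05. All 8 epithelial markers had a lower mean in CUMS, 6 of them with an unadjusted p under 0.05 in edgeR. Of these 8, 0 had groups that did not overlap. Their sum was 4047 normalized reads in control library a, 1004810 in control library b, and 4936 and 7329 in the CUMS libraries. In control library b, 961759 of these were miR-182-5p. miR-96-5p and miR-200c-3p were at 0 in control library a and miR-200c-3p was at 0 in both CUMS libraries. In control library a the sum of the epithelial markers was below that in both CUMS libraries. Of its 4047 normalized reads there, 3845 were miR-182-5p, and not every marker of the list was below both CUMS libraries. In normalized reads, miR-34c-5p and miR-204-5p had the same order of libraries, with control b the highest, followed by control a, CUMS a and CUMS b. miR-34b-5p and miR-211-5p did not have this order. For miR-34b-5p, CUMS b (260) was above CUMS a (238). For miR-211-5p, control a (124) was the highest, and control b (20.0) was below CUMS a (86.6). How many other miRNAs had this order was not counted. The part of these cell types in the levels of miR-34b and miR-34c was not tested.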

How the data were processed

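Small RNA of the medial prefrontal cortex was sequenced in 2 control and 2 CUMS libraries. The authors removed adaptors, low-quality reads and other noncoding RNAs, matched the reads to mouse miRBase precursors without mismatch and counted them per mature miRNA. The submitters' processing notes name Bowtie, DESeq and mm10, and versions are not given in the sources used here. The authors deposited a signal value for each miRNA and group, in which the reads of each library were divided by its DESeq size factor and then averaged. The columns carry no group names, and they were assigned because the paper prints their values under the headings control and CUMS. The fold changes and p-values of the authors' own comparison, which the table also holds, were not used.

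Each group mean is a sum of whole reads of the libraries, each times its own step. Whole reads were found for 1038 of 1038 values (100%) in each group, and no value was off by a relative residual above 4.69e-15. For 2 control values another pair of whole numbers came within 10 times the residual. The steps differ by 2.19% in control and by 12.5% in CUMS. On 10 simulated columns of 1000 values 100% were recovered. Size factors computed anew, by the median of ratios of 650 miRNAs, gave the same factors as the steps.

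The main value of a member is the log2 ratio of the group means. The recovered reads were tested with edgeR 4.0.16 (quasi-likelihood test, TMM, 5 or more reads in 1 or more libraries) and, as an alternative, with the Wald test of DESeq2 1.42.0, both in R 4.3.3 with Benjamini-Hochberg adjustment over all 719 miRNAs. On simulated reads of 599 miRNAs for CUMS against control, 200 of them changed by a fold of 4 at a dispersion of 0.02, edgeR found 193 changed miRNAs (96.5%) and made 4 false calls, and DESeq2 found 175 (87.5%) and made 3. The common dispersion that edgeR estimated in the real libraries was 0.13, above the simulated 0.02, and the folds of the members were under the simulated 4. The shares found in the simulation therefore do not carry over to the members. Other steps used Python 3.11.15, numpy 2.4.6, pandas 2.3.3, scipy 1.17.1 and matplotlib 3.10.9.

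The miRNAs named are the members, the 3 miRNAs with the pattern nearest to the member with the most reads, and up to 4 of each list of p53-linked, choroid plexus and epithelial miRNAs. Members and lists were chosen with earlier results of these data known. In the lists of neurons (4 miRNAs), oligodendrocytes (2), red cells (2), liver (1) and skeletal muscle (3, of which 2 are in the table), 0 passed an unadjusted p under 0.05 in edgeR. The 2 oligodendrocyte markers, miR-219a-2-3p and miR-338-3p, had both CUMS libraries below both control libraries, with summed normalized reads of 7693 and 8173 in control and 6011 and 7154 in CUMS, and so did the muscle marker miR-133a-3p (log2 ratio -0.58). All 4 neuron markers (median log2 ratio 0.22) and both red cell markers (median 0.41) had a higher mean in CUMS. The liver marker miR-122-5p had 0 reads in control and 1 read in each CUMS library. Among all miRNAs tested, 17.1% had both CUMS libraries below both control libraries and 47.7% had a lower mean in CUMS. With edgeR, 4.17% had an unadjusted p under 0.05.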

Additional observations from a re-analysis of the deposited data

How the results depend on the processing

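The log2 ratios of 7 members were recomputed under 10 alternatives each, which were other scalings of the libraries, a pseudocount of 1, both tools and leaving out each library, and of these 70 values 63 kept their direction and moved by less than the spread between replicates. The scalings, the pseudocount and both tools used the same reads. The direction turned 4 times, and 3 other values moved by more than this spread, in each case with a library left out. For miR-34c-5p, miR-34b-5p and miR-34b-3p, whose groups did not overlap, leaving out a library could not turn the direction. Where it turned, the log2 ratio was 0.46 for miR-34a-5p without control library a and 0.15 without CUMS library a. Without control library b, it was 0.19 for miR-449a-5p and 0.075 for miR-449c-5p. The values with each library left out ranged from -0.67 to 0.46 for miR-34a-5p, from -1.09 to 0.19 for miR-449a-5p and from -1.78 to 0.075 for miR-449c-5p. The cause was not tested. The log2 ratio of the summed family was -0.51 without miR-34c-5p and between -0.76 and -0.54 with each library left out. The count of members with a higher mean in CUMS was 1 when members under a mean of 5 in both groups were left out, and between 2 and 4 with each library left out, 4 of them without control library b. The count of members that passed the edgeR criteria was 0 with an adjusted p under 0.05. It was 3 with at least 10 reads in at least 2 libraries, where miR-34b-3p joined and 29 of the 534 miRNAs tested passed. Counts of calls with a library left out are not given, because a group then holds a lone library that has no spread of its own. With each library left out, the difference of the arm ratios was between -2.30 and -0.77 for miR-34c and between 0.28 and 0.52 for miR-34b. The groups did not overlap in either arm ratio, so leaving out a library could not turn its sign. With 1 added to the reads of both arms, the differences were -1.43 and 0.33. The precision of the miR-449 members and of the 3p arms is limited by their few reads. No paired analysis was possible because the columns carry no replicate numbers.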
